A study of Mus musculus with 8 samples.

Results

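The 10 genes described here carry glucose into the cell and through glycolysis to lactate: the glucose transporter genes Slc2a1 and Slc2a3, the hexokinase genes Hk1 and Hk2, the phosphofructokinase gene Pfkp, the genes of the middle enzymes Aldoa, Tpi1, Gapdh and Pgk1, and the lactate dehydrogenase gene Ldha. They were taken by gene symbol, and each had 1 row in every gene table. The tables held 23746 rows and 23284 distinct symbols. All 10 genes were among the 9782 rows that reached at least 1 FPKM (fragments scaled to transcript length and library size) in at least 2 libraries.

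The RNA came from CD8+ T cells that bound the AH1 tetramer, taken from BALB/c mice with a FACSAria III sorter. AH1 is cut from the envelope protein of a murine leukaemia virus, and the tetramer stains T cells whose receptor recognises it. There were 8 libraries, 2 for each combination of genotype and subset. The genotypes were wild type and Cd69-/- (Cd69-deficient below), and the labels call the subsets stem-like and term diff (term-diff below). The labels give no tumour, age, sex, number of mice or sort gates, and do not say if groups share mice, so the p-values measure the spread between these libraries, which may be technical. Fewer cells of a type and less RNA per cell cannot be told apart in such bulk libraries.

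Glucose enters T cells by facilitated diffusion through transporters of the SLC2A (GLUT) family. Hexokinase traps it as glucose 6-phosphate, phosphofructokinase commits it to glycolysis, aldolase splits the sugar, and triosephosphate isomerase, glyceraldehyde-3-phosphate dehydrogenase and phosphoglycerate kinase carry the products to the ATP-yielding steps. Lactate dehydrogenase turns pyruvate into lactate and regenerates the NAD+ that keeps the pathway running. Activated CD8 T cells are known for a raised use of glucose, and the transcription factors HIF-1 and MYC are textbook regulators of these genes.

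Promoter windows from RefSeq (GRCm38.p6, from 250 bases before to 50 bases after the annotated start) were available for 9 of the 10 genes, in 13 windows. Slc2a3 had no entry. The core letters of the hypoxia response element, ACGTG on one strand or CACGT on the other, occurred in 8 of the 13 windows. Of 32851 promoter windows of the same length, 19.6% held them. By gene they occurred in 7 of the 9, where a match in any window of a gene counts, so the share of windows is no background for that count. The windows with a match held 56.7% to 67.3% G and C, against a median of 52.7% over all windows, and the share was not matched for this. The 13 windows are not independent, since 2 of the Aldoa windows overlap each other. The E-box CACGTG, which contains ACGTG, occurred in Ldha alone among these genes and in 7.15% of all windows. The GC box GGGCGG (or CCGCCC) occurred in 8 of the 13 windows, against 35.7% of all windows, and in 7 of the 9 genes. A match is a description of the letters and not a site of binding.

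4 windows are shown. They belong to a transporter and a phosphofructokinase that were higher in term-diff cells, to the hexokinase that was lower there, and to Ldha. The Ldha window is the upstream one of 2 and was picked because it held the most matches. Each is read 5′ to 3′ on the gene's strand, and capitals mark the matches to the hypoxia response core on either strand, which overlap where they form the E-box. The windows are at chr4:119108495-119108794 (plus strand) for Slc2a1, chr6:82774405-82774704 (minus strand) for Hk2, chr13:6648722-6649021 (minus strand) for Pfkp and chr7:46845554-46845853 (plus strand) for Ldha.
Slc2a1 promoter: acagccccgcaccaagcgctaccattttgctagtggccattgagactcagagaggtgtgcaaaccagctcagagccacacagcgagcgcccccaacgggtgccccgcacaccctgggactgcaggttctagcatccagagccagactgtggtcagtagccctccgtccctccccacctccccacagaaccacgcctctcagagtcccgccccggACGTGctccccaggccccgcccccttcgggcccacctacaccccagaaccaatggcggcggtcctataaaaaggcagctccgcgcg
Hk2 promoter: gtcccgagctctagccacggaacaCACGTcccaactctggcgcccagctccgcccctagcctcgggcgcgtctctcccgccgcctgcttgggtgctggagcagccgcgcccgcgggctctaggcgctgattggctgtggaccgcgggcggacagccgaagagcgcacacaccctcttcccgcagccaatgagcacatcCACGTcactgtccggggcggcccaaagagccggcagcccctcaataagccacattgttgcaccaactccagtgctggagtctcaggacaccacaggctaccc
Pfkp promoter: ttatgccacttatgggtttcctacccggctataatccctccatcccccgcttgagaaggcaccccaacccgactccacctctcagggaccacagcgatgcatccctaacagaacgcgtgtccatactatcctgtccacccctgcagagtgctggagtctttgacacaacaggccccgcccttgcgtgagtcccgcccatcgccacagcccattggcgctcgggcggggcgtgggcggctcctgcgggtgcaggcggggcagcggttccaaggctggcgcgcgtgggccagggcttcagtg
Ldha promoter: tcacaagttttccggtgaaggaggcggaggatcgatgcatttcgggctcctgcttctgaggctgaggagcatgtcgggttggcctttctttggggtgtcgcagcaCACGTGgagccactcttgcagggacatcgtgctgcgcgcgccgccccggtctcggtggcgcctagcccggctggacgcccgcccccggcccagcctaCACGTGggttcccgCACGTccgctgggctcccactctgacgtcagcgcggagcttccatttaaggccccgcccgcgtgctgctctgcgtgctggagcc

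The Slc2a1 window held 1 match to ACGTG, the Hk2 window 2 and the Pfkp window 0. The Ldha window shown held 5 matches on the 2 strands, of which 4 lie in its 2 CACGTG sites. Hk2 and Slc2a1, whose values moved in opposite directions between the subsets, thus both held the letters, and Pfkp, whose values moved with those of Slc2a1, did not. Among the windows that are not shown, Gapdh held 1 match, Pgk1 held 2, the downstream Hk1 window held 2, and Tpi1 held 0. The downstream Ldha window, the upstream Hk1 window and the Aldoa window furthest upstream held 0, and the 2 overlapping Aldoa windows held 1 each.

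The deposited values are FPKM, which scale with transcript length, so that levels can be compared between genes. Over the 8 libraries the mean level ran from 3.97 FPKM for Hk2 to 69.1 FPKM for Aldoa. In between lay Slc2a3 at 10.2, Slc2a1 at 10.8, Hk1 at 15.7, Pfkp at 21.2, Tpi1 at 26.7, Pgk1 at 33.9, Gapdh at 56.4 and Ldha at 65.1 FPKM. By these means the transporters, hexokinases and Pfkp were listed at lower levels than Aldoa, Tpi1, Gapdh, Pgk1 and Ldha. The order did not hold in every library: in wild-type term-diff replicate 2, Pfkp (23.4 FPKM) stood above Tpi1 (19.8 FPKM). Aldoa and Ldha could not be ordered: in the wild-type stem-like libraries Ldha stood above Aldoa, and in the other 6 libraries the order was the other way. The 2 transporters also lay within their spread of each other.

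The libraries implied 2055402 to 2591061 fragments each, computed from the width of the confidence intervals deposited with the FPKM. For the 10 genes the implied number ran from 118 fragments for Hk2 in its lowest library to 747 for Aldoa in its highest. The counting error this gives is 3.66% to 4.82% of the value for Aldoa and 6.68% to 9.21% for Hk2. It covers counting alone and no difference between mice. Rows for near-identical copies were low: Aldoart1 was at most 0.720 FPKM, Aldoart2 at most 0.169, Gapdhs at most 0.802 and Ldhal6b at most 0.619. Reads shared with other processed copies of Gapdh, Aldoa, Ldha, Tpi1 or Pgk1 cannot be seen in these tables, so the levels of these 5 genes carry that uncertainty.

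The genotype labels were checked on Cd69 itself, which encodes an early activation antigen of T cells. Wild-type stem-like libraries held 22.5 and 23.4 FPKM and wild-type term-diff libraries 10.4 and 12.9 FPKM. Cd69-deficient stem-like libraries held 3.69 and 2.42 FPKM and Cd69-deficient term-diff libraries 2.21 and 2.43 FPKM. Every Cd69-deficient library lay below every wild-type one, and the difference in log2(FPKM + 1) was -2.25 ± 0.12 (adjusted p = 0.000247) averaged over subsets. The labels do not say which part of the gene was removed. Of the CD8 T cell markers, all 8 were kept and summed to 983 to 1485 FPKM per library, while 8 myeloid markers summed to 2.31 to 7.67 FPKM. The 4 erythroid markers summed to 0.578 to 2.75 FPKM, and of these Hbb-b1 alone was at 0 in every library. In replicate 2 of both wild-type groups, rows of small RNA held 63.6% and 56.0% of the deposited FPKM, against 77.9% to 84.4% in the other 6 libraries, so results are also given without these 2.

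**Figure D1:**
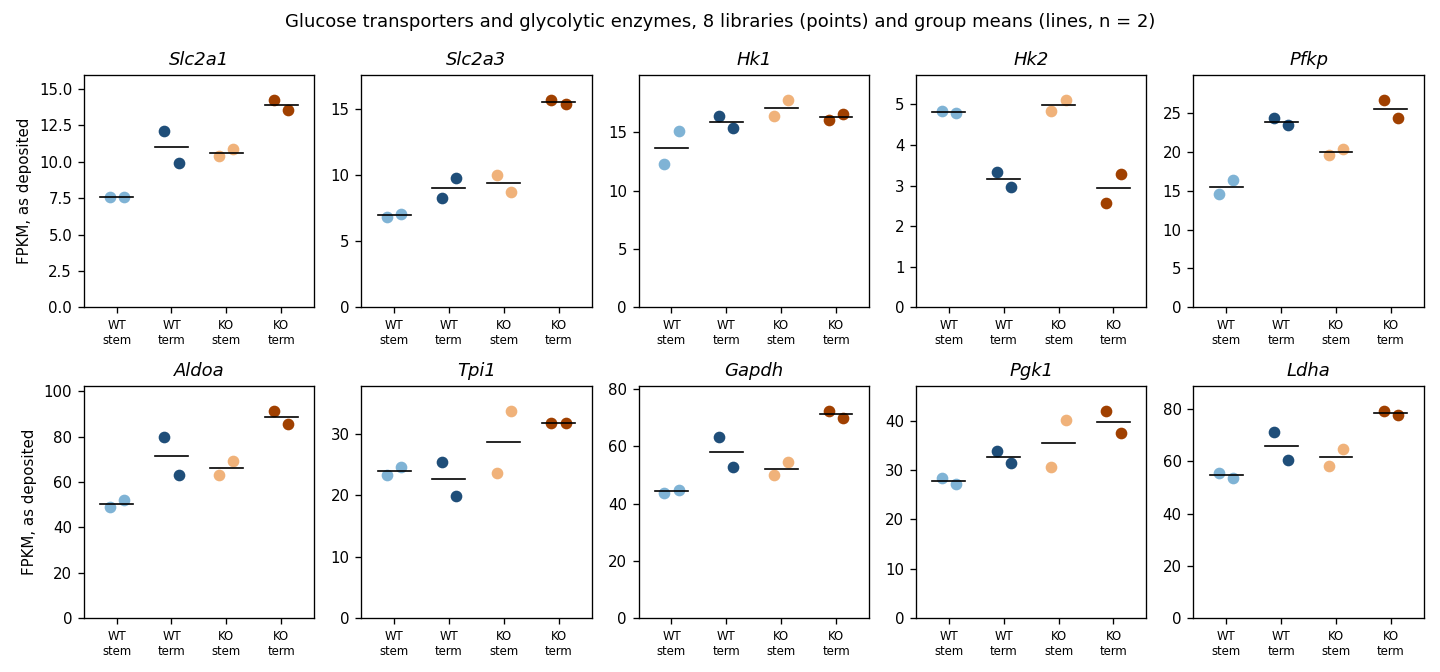
Deposited FPKM of each gene (vertical axis, from 0) in the 8 libraries (points), by genotype (WT, wild type; KO, Cd69-deficient) and subset, with the mean of each pair as a line. Hk2 sits lower in both term-diff groups (2.57 to 3.34 FPKM) than in both stem-like groups (4.77 to 5.11 FPKM), and Pfkp sits higher (23.4 to 26.7 against 14.6 to 20.4 FPKM).

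Between the subsets the question was how term-diff cells differed from stem-like cells. Differences are of log2(FPKM + 1) ± standard error, positive where term-diff was higher, from a limma fit of the 4 group means over all genes kept. A gene is called when its p adjusted by Benjamini and Hochberg over the 9782 genes is under 0.05. Averaged over the genotypes, 6 of the 10 genes were called: Slc2a1, Slc2a3, Pfkp, Aldoa and Gapdh rose and Hk2 fell. Of all genes 20.5% were called in this comparison, 10.5% as higher and 9.93% as lower. The median difference of the 10 genes was 0.36, against 0.02 for all genes kept, and 9 of the 10 were above 0, against 52.0% of all genes.

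In the wild type, 3 of the 10 genes were called, Pfkp and Slc2a1 as higher and Hk2 as lower, against 13.1% of all genes, 7.24% as higher and 5.83% as lower. In Cd69-deficient cells 2 were called, Slc2a3 as higher and Hk2 as lower, against 9.45% of all genes, 3.88% as higher and 5.56% as lower. The medians of the 10 genes were 0.30 in the wild type and 0.34 in Cd69-deficient cells, against 0.06 and -0.03 for all genes. Both term-diff libraries lay above both stem-like libraries for 8 genes in the wild type and for 6 in Cd69-deficient cells, where all genes gave 33.4% and 24.5%. These 2 comparisons use different libraries. With 2 libraries against 2, an exact permutation test cannot reach 0.05, so the calls rest on the spread that limma pools over genes.

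Voom and a robust spread gave more calls in the comparisons listed here, among the 10 genes and among all genes. Not every other estimate of the spread did so. A spread without trend lost the wild-type calls of Slc2a1 and Hk2, and library weights lost that of Hk2. Voom on implied fragments called 6 of the 10 in Cd69-deficient cells and 7 on average, against 16.5% and 27.7% of all genes, and added Slc2a1, Pfkp, Gapdh and Ldha in the former and Ldha in the latter. A robust spread called 4 in the wild type and 7 on average, against 15.1% and 22.6% of all genes, and added Aldoa and Ldha respectively.

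Slc2a1 encodes GLUT1, the main glucose transporter of activated T cells. Its level was 7.62 and 7.60 FPKM in wild-type stem-like libraries, 12.1 and 9.91 in wild-type term-diff, 10.4 and 10.9 in stem-like cells lacking Cd69 and 14.3 and 13.6 in term-diff cells lacking it. Within each genotype the term-diff pair stood above the stem-like pair, but a wild-type term-diff library lay below both Cd69-deficient stem-like ones. The difference was 0.47 ± 0.12 in the wild type (adjusted p = 0.0401), 0.36 ± 0.12 in Cd69-deficient cells (adjusted p = 0.114) and 0.42 ± 0.09 on average (adjusted p = 0.0115). The averaged call held when any 1 of the 8 libraries was left out, with differences of 0.35 to 0.48. The wild-type call held in 1 of those 8 omissions, that of wild-type term-diff replicate 2, and was lost in the other 7, with an adjusted p of 0.185 at most and a difference of 0.34 at least. Without both wild-type replicate 2 libraries the wild-type difference was 0.60 (adjusted p = 0.115).

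Slc2a3 encodes GLUT3, a transporter of high affinity for glucose. Wild-type stem-like libraries held 6.84 and 7.10 FPKM, wild-type term-diff 8.31 and 9.81, Cd69-deficient stem-like 10.1 and 8.70, and Cd69-deficient term-diff 15.7 and 15.4 FPKM. The Cd69-deficient term-diff pair stood above all 6 other libraries. The subset difference was 0.33 ± 0.12 in the wild type (adjusted p = 0.124), 0.68 ± 0.12 in Cd69-deficient cells (adjusted p = 0.0133) and 0.50 ± 0.09 on average (adjusted p = 0.00516). The averaged call held in all 8 single omissions. The call in Cd69-deficient cells was lost without any 1 of the 4 Cd69-deficient libraries, where the adjusted p reached 0.0869 and the difference ran from 0.58 to 0.77. Whether the subset difference itself differed between genotypes was tested as an interaction, which was 0.34 ± 0.18 (adjusted p = 0.554), so the larger value in Cd69-deficient cells was within the spread.

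Summed, both transporters gave 14.6 ± 0.17 FPKM (SD, n = 2) in wild-type stem-like cells, 20.1 ± 0.49 in wild-type term-diff, 20.01 ± 0.63 in stem-like cells lacking Cd69 and 29.5 ± 0.74 in term-diff cells lacking it. Wild-type term-diff and Cd69-deficient stem-like cells could not be told apart in this sum. The ratio of Slc2a3 to Slc2a1 was 0.897 and 0.934 in wild-type stem-like libraries, 0.967 and 0.801 in Cd69-deficient stem-like, 0.687 and 0.990 in wild-type term-diff and 1.10 and 1.13 in Cd69-deficient term-diff. Slc2a3 was thus the higher of the pair in the 2 Cd69-deficient term-diff libraries and the lower in the other 6.

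Hk2, the inducible hexokinase, was the gene among the 10 that moved against the others. It stood at 4.84 and 4.77 FPKM in wild-type stem-like libraries, 3.34 and 2.98 in wild-type term-diff, 4.84 and 5.11 in stem-like cells lacking Cd69 and 2.57 and 3.29 in term-diff cells lacking it. All 4 term-diff libraries lay below all 4 stem-like ones, as for 11.1% of all genes. The difference was -0.48 ± 0.13 in the wild type (adjusted p = 0.0491), -0.61 ± 0.13 in Cd69-deficient cells (adjusted p = 0.0261) and -0.55 ± 0.09 on average (adjusted p = 0.00472). The averaged call held in all 8 single omissions, with differences of -0.61 to -0.48. The wild-type call was lost without any 1 of the 4 wild-type libraries and without either Cd69-deficient stem-like one (highest adjusted p 0.21). That in Cd69-deficient cells was lost without either stem-like replicate or without term-diff replicate 1 (highest adjusted p 0.123).

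Hk1, the hexokinase that most tissues express, was the more abundant one throughout, and none of its tests passed. It stood at 12.3 and 15.1 FPKM in wild-type stem-like libraries, 16.4 and 15.4 in wild-type term-diff, 16.4 and 17.8 in stem-like cells lacking Cd69 and 16.0 and 16.5 in term-diff cells lacking it. Its averaged subset difference was 0.07 ± 0.09 (95% interval -0.13 to 0.28, adjusted p = 0.626). The ratio of Hk1 to Hk2 was 2.54 and 3.15 in wild-type stem-like libraries, 3.38 and 3.48 in Cd69-deficient stem-like, 4.92 and 5.16 in wild-type term-diff and 6.23 and 5.02 in Cd69-deficient term-diff. No term-diff ratio overlapped a stem-like one. The sum of Hk1 and Hk2 was 18.5 ± 1.93 FPKM in wild-type stem-like, 19.0 ± 0.99 in wild-type term-diff, 22.0 ± 1.19 in stem-like cells lacking Cd69 and 19.2 ± 0.84 in term-diff cells lacking it (SD, n = 2). Both Cd69-deficient stem-like libraries (21.2 and 22.9 FPKM) stood above all the others, of which the highest was 19.8 FPKM.

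**Figure D2:**
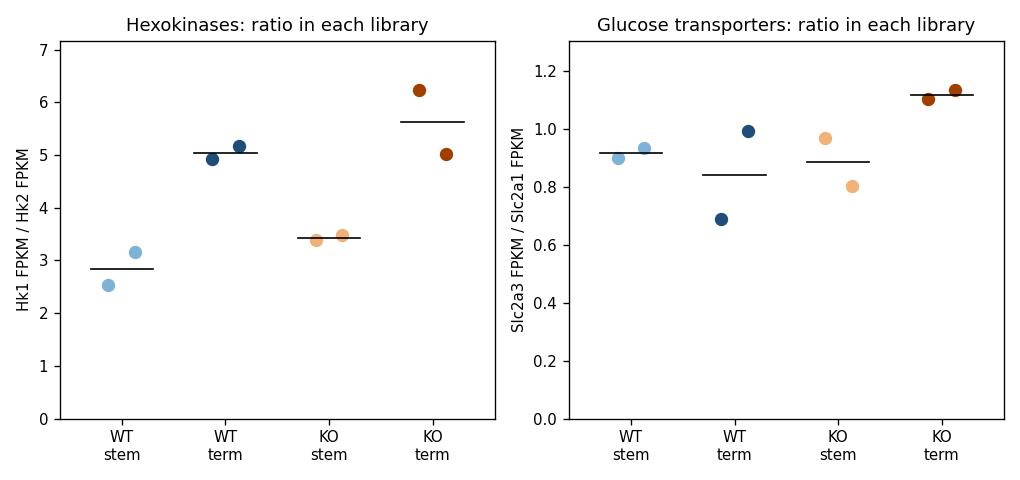
Ratio of FPKM between the 2 hexokinases (left) and the 2 glucose transporters (right) in each library (points), with the mean of each pair as a line; both axes start at 0. Hk1 over Hk2 is 4.92 to 6.23 in the 4 term-diff libraries and 2.54 to 3.48 in the 4 stem-like ones, and Slc2a3 over Slc2a1 exceeds 1 in the Cd69-deficient term-diff pair.

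Pfkp encodes the platelet-type phosphofructokinase, an isoform of the enzyme of the committed step. Its level was 14.6 and 16.4 FPKM in wild-type stem-like libraries, 24.3 and 23.4 in wild-type term-diff, 19.5 and 20.4 in stem-like cells lacking Cd69 and 26.7 and 24.4 in term-diff cells lacking it. It was the gene of the 10 for which all 4 term-diff libraries lay above all 4 stem-like ones, as for 10.9% of all genes. The difference was 0.59 ± 0.12 in the wild type (adjusted p = 0.0138), 0.34 ± 0.12 in Cd69-deficient cells (adjusted p = 0.115) and 0.47 ± 0.08 on average (adjusted p = 0.0053). The averaged call held in all 8 single omissions. In the wild type the call was lost without stem-like replicate 1 or either term-diff replicate, with an adjusted p of up to 0.0829 and a difference of at least 0.51. The difference between genotypes in this response was -0.25 ± 0.16 (adjusted p = 0.604).

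The other phosphofructokinase genes did not follow Pfkp. Pfkl, the liver type, had group means of 7.05 ± 0.85 FPKM (SD, n = 2) in wild-type stem-like, 6.64 ± 0.65 in wild-type term-diff, 8.23 ± 0.52 in stem-like cells lacking Cd69 and 6.35 ± 0.26 in term-diff cells lacking it, and none of its tests passed. Pfkm, the muscle type, was lower in Cd69-deficient term-diff than stem-like cells by -0.92 ± 0.17 (adjusted p = 0.0138) and on average by -0.71 (adjusted p = 0.00461). Its levels were 3.06 ± 0.09 FPKM in Cd69-deficient stem-like and 1.16 ± 0.42 FPKM in Cd69-deficient term-diff cells.

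Aldoa, which splits fructose 1,6-bisphosphate, stood at 48.9 and 51.9 FPKM in wild-type stem-like libraries, 79.7 and 62.9 in wild-type term-diff, 63.2 and 69.3 in stem-like cells lacking Cd69 and 91.5 and 85.4 in term-diff cells lacking it. Gapdh, the first NADH-yielding step, followed the same order, with 43.8 and 44.7 FPKM, 63.1 and 52.9 FPKM, 50.03 and 54.5 FPKM and 72.5 and 69.9 FPKM in these 4 groups. For both genes the Cd69-deficient term-diff pair was the highest and the wild-type stem-like pair the lowest, and the other 2 groups overlapped. The averaged subset difference was 0.45 ± 0.11 for Aldoa (adjusted p = 0.0214) and 0.41 ± 0.10 for Gapdh (adjusted p = 0.0184), while neither was called within a genotype by this fit. Voom called Gapdh in Cd69-deficient cells (0.49, adjusted p = 0.00699), and a robust spread called Aldoa in the wild type (0.48, adjusted p = 0.0459). Leaving out wild-type stem-like replicate 1, wild-type term-diff replicate 1, Cd69-deficient stem-like replicate 1 or either Cd69-deficient term-diff library ended the Aldoa call (adjusted p up to 0.0853), and all of these but wild-type stem-like replicate 1 ended that of Gapdh (adjusted p up to 0.0781). Quantile normalization, which gives all libraries 1 distribution, lowered the differences to 0.22 for Aldoa and 0.18 for Gapdh and neither was called.

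Tpi1, Pgk1 and Ldha were not called in any comparison by the limma fit of log2(FPKM + 1). Voom on implied fragments called Ldha in Cd69-deficient cells (0.36, adjusted p = 0.0309) and on average (0.24, adjusted p = 0.026), and a robust spread in limma called it on average (adjusted p = 0.0418). Tpi1, which interconverts the triose phosphates, stood at 23.3 and 24.6 FPKM in wild-type stem-like libraries, 25.4 and 19.8 in wild-type term-diff, 23.6 and 33.7 in stem-like cells lacking Cd69 and 31.7 and 31.8 in term-diff cells lacking it. It had the widest spread between replicates of the 10 genes, and its averaged subset difference was 0.04 ± 0.13 (95% interval -0.26 to 0.33). Pgk1, the first ATP-yielding step, stood at 28.5 and 27.1 FPKM, 33.8 and 31.4 FPKM, 30.6 and 40.1 FPKM and 42.0 and 37.4 FPKM in the same 4 groups, with an averaged difference of 0.20 ± 0.11 (adjusted p = 0.232). Ldha stood at 55.6 and 53.7 FPKM, 71.3 and 60.6 FPKM, 58.1 and 64.8 FPKM and 79.4 and 77.5 FPKM, with an averaged difference of 0.31 ± 0.10 (adjusted p = 0.0608). The Ldha term-diff pair lay above the stem-like pair within each genotype. The ratio of Gapdh to Tpi1, which are neighbouring steps, was 1.85 ± 0.05 in wild-type stem-like, 2.58 ± 0.13 in wild-type term-diff, 1.87 ± 0.36 in stem-like cells lacking Cd69 and 2.25 ± 0.06 in term-diff cells lacking it (SD, n = 2).

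**Figure D3:**
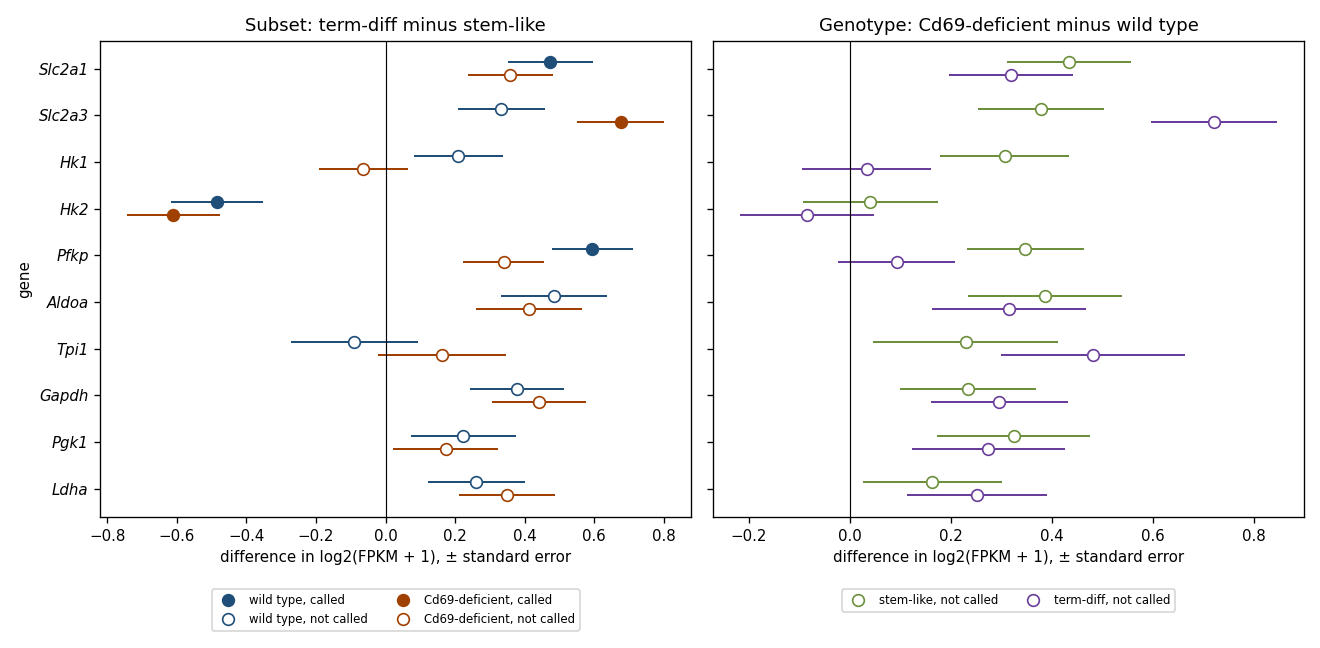
Differences in log2(FPKM + 1) of the 10 genes ± standard error, between subsets within each genotype (left) and between genotypes within each subset (right); filled points passed the test at an adjusted p under 0.05. On the left Hk2 lies below 0 in both genotypes and Slc2a1, Slc2a3 and Pfkp lie above 0, and on the right no point is filled.

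The second question was how Cd69-deficient cells differed from wild-type cells. No gene of the 10 was called within stem-like or within term-diff cells, where 0.153% and 0.194% of all genes were called by limma. At an unadjusted p under 0.05 there were 5 in stem-like and 3 in term-diff cells. The share of all genes at that threshold was not computed, so these counts have no background. Voom on implied fragments called 1, Slc2a3, in term-diff cells and 0 in stem-like ones, against 3.28% and 0.44% of all genes. A robust spread also called Slc2a3 in term-diff cells, against 0.797% of all genes. All 10 differences were above 0 in stem-like cells and 9 in term-diff cells, against 62.5% and 42.0% of all genes kept. Their medians were 0.32 and 0.29, against 0.06 and -0.05 for all genes. Both Cd69-deficient libraries lay above both wild-type ones for 8 genes in each subset, where all genes gave 26.3% and 19.7%. All 4 Cd69-deficient libraries stood above all 4 wild-type ones for 0 of the 10 and below for 0, against 1.75% and 1.32% of all genes.

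Averaged over subsets, 1 gene was called, Slc2a3, as higher in Cd69-deficient cells by 0.55 ± 0.09 (adjusted p = 0.0432), against 0.542% of all genes, 0.266% as higher. Within stem-like cells its difference was 0.38 ± 0.12 with an adjusted p of 0.556, and within term-diff cells it was 0.72 ± 0.12 with an adjusted p of 0.0916. In each subset the Cd69-deficient pair lay above the wild-type pair. The averaged call was lost when any 1 of the 8 libraries was left out, with adjusted p values of 0.0799 to 0.179 and differences of 0.50 to 0.60, and without both wild-type replicate 2 libraries (0.62, adjusted p = 0.165). Rescaling every library to an equal sum of FPKM, a sum that small RNA dominates, turned the difference to -0.19 (adjusted p = 0.7). The same rescaling moved the median of all genes to -0.65, so that relative to it Slc2a3 was still the higher.

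For the other 9 genes the genotype difference averaged over subsets was not called. It was 0.38 ± 0.09 for Slc2a1 (adjusted p = 0.149), 0.36 ± 0.13 for Tpi1 (adjusted p = 0.337), 0.35 ± 0.11 for Aldoa (adjusted p = 0.259) and 0.30 ± 0.11 for Pgk1 (adjusted p = 0.328). Gapdh, Pfkp, Ldha and Hk1 had 0.26, 0.22, 0.21 and 0.17. Hk2 had -0.02 ± 0.09, with a 95% interval of -0.24 to 0.19, the smallest difference of the 10. At an unadjusted p under 0.05 there were 7 genes in this comparison. The share of all genes at that threshold was not computed, here or for the interaction. The interaction of genotype and subset was called for 0 of the 10 genes by limma, 0 at an unadjusted p under 0.05 and 0 by voom, against 0.0307% of all genes by limma and 0% by voom.

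Abundant genes as a whole leaned the same way, which bears on how these differences read. Among the 521 genes with a mean of at least 50 FPKM, the median genotype difference was 0.19 and 82.0% were above 0, and the 3 of the 10 genes at that level (Aldoa, Gapdh and Ldha) had a median of 0.26. Among the 2640 genes of at least 10 FPKM the median was 0.04 and 59.7% were above 0, and the 9 of the 10 genes at that level had a median of 0.30. In term-diff cells alone the 521 genes had a median of 0.34, above the 0.30 of Aldoa, Gapdh and Ldha. For the subset difference averaged over genotypes the 521 genes had a median of 0.12 and the 3 genes 0.41. Within Cd69-deficient cells these medians were 0.25 and 0.41, with 72.4% of the 521 genes above 0. Within the wild type they were 0.04 and 0.38, with 53.0% above 0. Under quantile normalization the median of the 10 genes fell from 0.36 to 0.12 between subsets and from 0.28 to 0.16 between genotypes. The part of this lean in the values of the 10 genes was not tested.

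**Figure D4:**
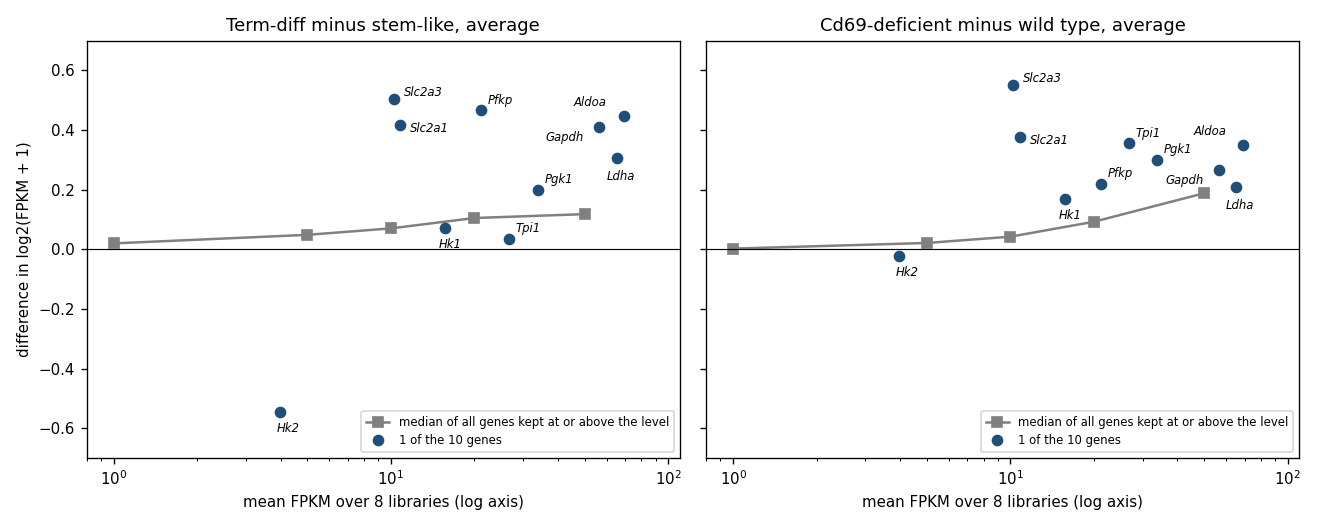
Differences averaged over genotypes (left) or subsets (right) for the 10 genes (points) against their mean FPKM over 8 libraries (log axis), with the median of all genes kept at or above 1, 5, 10, 20 and 50 FPKM (squares). On the right the median rises from 0.00 at 1 FPKM to 0.19 at 50 FPKM, close to Gapdh (0.26) and Ldha (0.21), while Slc2a3 (0.55) and Slc2a1 (0.38) lie further above it.

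Slc2a3, Tpi1 and Gapdh lie on chromosome 6 within 10 Mb of Cd69. In mm10, Slc2a3 spans chr6:122727809-122742745, Tpi1 chr6:124810592-124814296, Gapdh chr6:125161852-125165583 and Cd69 chr6:129267325-129275369, so that the 3 genes start -6.54, -4.46 and -4.11 Mb from Cd69. Of the 107 genes kept in that window, 9 were called between genotypes on average, 4 as higher and 5 as lower, or 8.41%. Outside it 44 of 9675 were called, or 0.455%. The called genes besides Slc2a3 and Cd69 were Klrd1, Klrc1 and Klrc2 (0.83, 1.04 and 1.02) and Klrc3, Klra3, Gm156 and C530028O21Rik (-1.60, -1.87, -0.64 and -1.89), most of them natural killer receptor genes close to Cd69.

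Slc2a3 was the gene of the 10 called between genotypes and it lies in this window, while Tpi1 and Gapdh in the same window were not called (0.36 and 0.26, adjusted p = 0.337 and 0.334). Eno2, an enolase gene in the same window, had 0.16 (adjusted p = 0.577). None of the 10 kept genes nearest to Slc2a3 was called: the closest, Foxj2 at 0.09 Mb, had 0.19 and Necap1 at 0.15 Mb had 0.09. The labels do not give the genetic background around the Cd69 deletion. An effect of the Cd69 deletion and a difference in linked DNA cannot be told apart for Slc2a3 in this design.

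**Figure D5:**
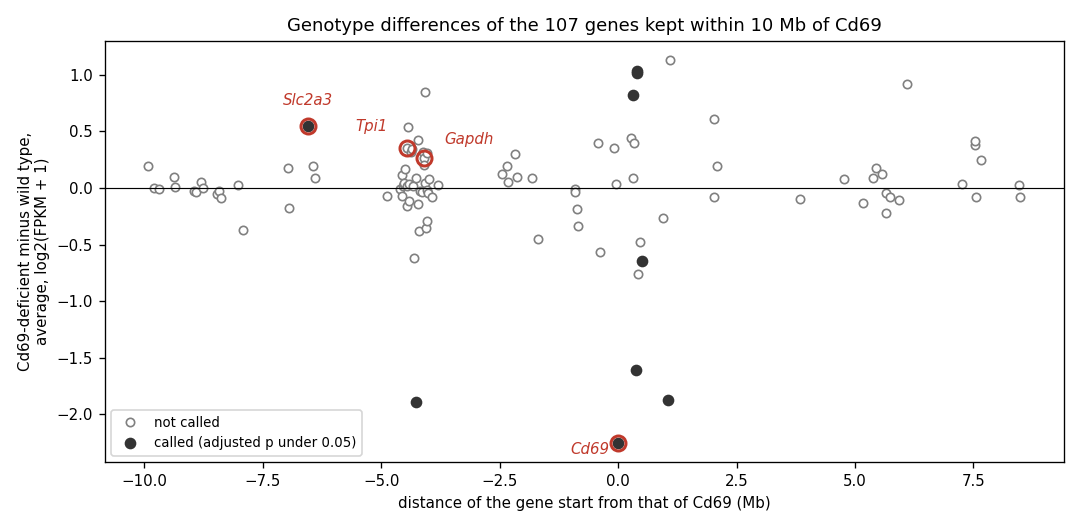
Genotype difference averaged over subsets, in log2(FPKM + 1), of the 107 genes kept within 10 Mb of Cd69, against the distance of each gene's start from that of Cd69 in Mb; filled points were called. Slc2a3 is filled at -6.54 Mb, Tpi1 and Gapdh are open, and the other filled points include Cd69 and receptor genes near it.

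The other 7 genes lie elsewhere or further off: Slc2a1 at chr4:119108745-119137329, Hk1 at chr10:62268855-62379908, Hk2 at chr6:82725027-82774454, Pfkp at chr13:6579874-6648724, Aldoa at chr7:126795234-126800447, Ldha at chr7:46845804-46855627 and Pgk1 at chrX:106187124-106203699, all in mm10 and annotated as protein coding. Each FPKM sums over the whole gene, so exons, introns and UTRs were not told apart.

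Across the 8 libraries the 10 genes mostly moved together, apart from Hk2. Pearson's r of log2(FPKM + 1) had a median of 0.68 over the 45 pairs, from -0.83 (Hk2 with Pfkp) to 0.99 (Slc2a1 with Aldoa). All 9 negative pairs included Hk2. The points share 4 groups of 2 libraries, so r here describes how groups line up. Gapdh with Ldha (0.99) and Aldoa with Gapdh (0.99) were as close, while Tpi1 had a median of 0.61 with the others and Hk1 of 0.57. The deposited FPKM of the 10 genes summed to 246 and 253 in wild-type stem-like, 287 and 325 in Cd69-deficient stem-like, 338 and 289 in wild-type term-diff and 392.3 and 375 in Cd69-deficient term-diff libraries.

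Other genes with a like pattern were sought among 4731 with a mean of at least 5 FPKM, by Pearson's r over the 8 libraries. Closest to the mean of the 10 standardised genes were Psme1 (r = 0.98), a proteasome activator subunit, then Bscl2, 2410001C21Rik, Fxyd5 and Hist1h2ap (0.96 to 0.97). For Hk2 they were Stx6 (0.98), Exph5, Tnfsf8, Gdi2 and Ccr7, the last a homing receptor of naive and memory T cells. For Slc2a1 they were Vim, Ppp1ca, Mbd2, Gm12070 and Ctla2a (0.97). For Slc2a3 they were Pstpip1 (0.95), Ifng, Samm50, Mrpl30 and Capg. For Pfkp they were Atp8b4 (0.99), Rac2, Katna1, Atp2b4 and Cnp. Histone genes led for Aldoa and Gapdh: Hist1h4d (0.98), Ostm1, Hist2h3c2, Hist1h4b and Hist1h2bg for the former, and Hist1h2bg (0.99), Hist1h4b, Plp2 and Tram1 for the latter. With this many candidates and 4 groups, high values of r are to be had for many genes.

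The steps of glycolysis outside the 10 genes were a further list of 20 genes, of which 12 were kept. Between subsets 0 rose and 2 fell in the wild type, 0 rose and 1 fell in Cd69-deficient cells, and 2 rose and 3 fell on average, with a median of -0.15 against 0.02 for all genes. The shares of all genes called were 13.1%, 9.45% and 20.5% in the same order. Pkm2, the symbol under which the tables list the pyruvate kinase gene Pkm, stood at 66.5 and 66.9 FPKM in wild-type stem-like libraries, 89.3 and 88.1 in wild-type term-diff, 73.1 and 82.9 in stem-like cells lacking Cd69 and 102.2 and 93.2 in term-diff cells lacking it. Its averaged difference was 0.36 ± 0.10 (adjusted p = 0.0312), a call that was lost in each of the 8 single omissions. Gpi1, which makes fructose 6-phosphate, had 0.14 ± 0.09 and the enolase gene Eno1 0.25 ± 0.12, neither of them called. Pgam1, phosphoglycerate mutase, had -0.13 ± 0.11.

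Minor isoforms and other genes of this list moved in both directions. Eno2 and Galm, which encodes the mutarotase of galactose and glucose, fell in the wild type by -0.78 ± 0.15 (adjusted p = 0.0127) and -0.98 ± 0.14 (adjusted p = 0.00321). Their levels were low, at 1.149 ± 0.01 and 2.296 ± 0.20 FPKM in wild-type stem-like and 0.25 ± 0.03 and 0.67 ± 0.04 FPKM in wild-type term-diff cells (SD, n = 2). Eno3, called after averaging, rose by 0.54 ± 0.12 (adjusted p = 0.0133). Between genotypes none of the 12 genes was called within a subset or on average.

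Of 11 other hexose transporter genes 3 were kept. Slc2a6, which encodes GLUT6, fell in term-diff cells by -1.02 ± 0.17 in the wild type (adjusted p = 0.00719) and by -0.85 ± 0.17 in Cd69-deficient cells (adjusted p = 0.0192). Its libraries ran from 0.902 to 1.66 FPKM in stem-like cells and from 0.131 to 0.227 FPKM in term-diff cells, the latter on 1 to 3 implied fragments, so its fold is poorly fixed.

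At the lactate end, 20 of 29 genes for the fates of lactate and pyruvate were kept. Between subsets 2 rose and 1 fell in the wild type, 2 rose and 0 fell in Cd69-deficient cells, and 4 rose and 2 fell on average, with a median of 0.06. The shares of all genes called were 13.1%, 9.45% and 20.5% in the same order. Ldhb, the lactate dehydrogenase subunit of oxidative tissues, fell in the wild type by -1.33 ± 0.23 (adjusted p = 0.00829), from 2.77 and 3.56 FPKM to 0.815 and 0.505 FPKM, on 5 and 8 implied fragments. Gpd2, the mitochondrial glycerol-3-phosphate dehydrogenase, rose by 0.97 ± 0.14 in the wild type and 0.67 ± 0.14 in Cd69-deficient cells (adjusted p = 0.00397 and 0.0233). Me2, mitochondrial malic enzyme, rose by 0.82 ± 0.13 and 0.68 ± 0.13 (adjusted p = 0.00609 and 0.016). Slc16a3, the lactate exporter MCT4, was called on average alone, at 0.60 ± 0.13 (adjusted p = 0.0143), and stood at 1.93 to 3.51 FPKM in stem-like and 3.80 to 5.94 FPKM in term-diff libraries. Got1, a cytosolic transaminase, rose (0.36 ± 0.11, adjusted p = 0.0467) and Bsg, a chaperone of lactate transporters, fell (-0.33 ± 0.09, adjusted p = 0.0436) on average alone.

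Among 27 genes that control the flux, 20 were kept, and 1 rose and 1 fell in the wild type, 1 rose and 2 fell in Cd69-deficient cells. All genes gave 13.1% and 9.45% called in these comparisons, from which such small counts do not clearly differ. Ppp1r3b, which encodes a glycogen-targeting subunit of a protein phosphatase, had the largest change of any gene in these lists, 2.73 ± 0.14 in the wild type and 2.57 ± 0.14 in Cd69-deficient cells. Its libraries ran from 2.16 to 2.60 FPKM in stem-like and from 17.4 to 22.2 FPKM in term-diff cells. Hif1a, which encodes the oxygen-regulated subunit of HIF-1, fell by -0.57 ± 0.15 and -0.62 ± 0.15 (adjusted p = 0.0455 and 0.0435), from 78.9 to 106.5 FPKM in stem-like to 53.3 to 70.7 FPKM in term-diff libraries. Irf4, a transcription factor of T cell activation, fell in Cd69-deficient cells by -0.80 ± 0.16 (adjusted p = 0.0168). Of the 11 pentose phosphate genes, all kept, Rpia rose in the wild type (0.52 ± 0.13) and Taldo1 in Cd69-deficient cells (0.67 ± 0.17). Among the glycogen genes, Ugp2 (0.51 ± 0.13) rose in the wild type beside Ppp1r3b. No gene of these lists was called between genotypes within a subset.

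How many of these calls survive the loss of 1 library differs widely between genes. Ppp1r3b was called in both genotypes in all 8 single omissions, and Galm, Slc2a6, Gpd2 and Me2 in the wild type in all 8. In the wild type Hif1a was called in 0 of the 8, Rpia in 1, Ugp2 in 2, Eno2 in 4 and Ldhb in 7. In Cd69-deficient cells Hif1a was called in 2 of the 8, Slc2a6 and Taldo1 in 4, and Pfkm, Gpd2, Me2 and Irf4 in 5. On average over genotypes Hif1a, Eno3, Pfkm, Ldhb and Irf4 were called in all 8 and Slc16a3 in 6.

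Other values moved with the subset beside these genes. Of 14 proliferation genes, all kept, 8 were called as higher in the wild type and 0 in Cd69-deficient cells, with medians of 0.70 and 0.31. All genes gave 7.24% and 3.88%. In Cd69-deficient cells 13 of the 14 were above 0. On average 10 were called as higher, against 10.5% of all genes, and the interaction of genotype and subset was called for 0 of the 14. The FPKM of the 14 genes summed to 184 to 192 in wild-type stem-like and 322 to 340 in wild-type term-diff libraries. In Cd69-deficient libraries the sum was 187 to 240 in stem-like and 264 to 302 in term-diff cells. The 8 myeloid markers, 2 of them kept, summed to 5.04 to 7.67 FPKM in stem-like and 2.31 to 5.26 FPKM in term-diff libraries, and Cd68 fell on average (-0.60 ± 0.17, adjusted p = 0.0423). Markers of tumour and stroma, 1 of 9 kept, summed to 11.4 to 15.1 FPKM in stem-like and 5.10 to 7.07 FPKM in term-diff libraries, mostly Pecam1, which T cells also express. The 3 markers of CD4 and regulatory T cells summed to 5.43 to 8.26 FPKM in stem-like and 2.52 to 4.67 FPKM in term-diff libraries. The 3 markers of NK cells summed to 5.39 to 6.97 and 1.55 to 4.82 FPKM, mostly Eomes, which CD8 T cells also express. The 8 markers of CD8 T cells summed to 983 to 1149 FPKM in the wild type and 1167 to 1485 FPKM in Cd69-deficient libraries, the direction of the genotype differences above. The part of these values in the differences of the 10 genes was not tested.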

How the data were processed

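The 8 libraries were made with a stranded SMARTer total RNA kit for low input and sequenced as single-end reads on a NextSeq500, per the labels' protocols. Cufflinks 2.2.1, TopHat 1.3.2, Bowtie2 2.3.4, bcl2fastq 2.20 and the mm10 build are listed, per the submitters' processing notes, with no settings. The authors deposited FPKM per gene with confidence bounds, not read counts. An FPKM depends on the total of its library, to which small RNA contributes unevenly.

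The values were taken as deposited. In 3 genes 5 values with a failed status were left out. A gene was kept where 2 or more libraries reached 1 FPKM, which left 9782. Log2(FPKM + 1) was fitted by group with limma 3.58.1 in R 4.3.3 (mean-variance trend, 4 residual and 4.202 prior degrees of freedom), and the p-values of 7 comparisons were each adjusted (Benjamini-Hochberg) across the genes kept. The pseudocount understates changes of low genes. Implied fragments are the square of 2 times the FPKM over the distance to its upper bound. The fit was tested on simulated data.

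All 10 genes are given in every library. From the related lists the text names genes called within a genotype or subset, up to 4 per list and comparison, and Gpi1, Pfkl, Pgam1, Eno1 and Pkm regardless. Eno3, Slc16a3, Got1, Bsg and Ero1l, called on average alone, were named after their values were seen. The nearest genes by correlation are up to 5 per pattern. Some items that these rules would name are not reported here. The 10 genes and the lists were chosen with earlier results of these data known.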

Additional observations from a re-analysis of the deposited data

How the results depend on the processing

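Over 25 other settings, 1527 of 1713 values of single genes kept their direction and their side of the threshold. Of the others, 77 were called in neither setting and changed sign, 94 lost a call, 14 gained one and 1 reversed. Most of the 1713 were not called in the main fit and had no call to lose, so 1527 does not measure how stable the calls were. Calls of the main fit held in from 7 of 24 settings (Hk2 in the wild type) to 22 of 24 (Slc2a1, Slc2a3 and Pfkp on average). The reversal was Slc2a3 between genotypes on average, at -0.19 under equal FPKM sums, a scaling that moved the median of all genes to -0.65. In the wild type, the number of the 10 genes called between subsets was 3, and it was 1 with no filter on low values, with quantile normalization or with a spread without trend, 0 with equal FPKM sums, with only the groups compared, with a log2 difference of at least 1 or without both wild-type replicate 2 libraries, 0 to 2 with 1 library left out, and 4 (Aldoa added) with a robust spread or an adjusted p under 0.1. In Cd69-deficient cells it was 2, and it was 1 with no filter, with at least 5 FPKM in 2 libraries (where Hk2 was not tested), with quantile normalization, with equal sums without small RNA, with only the groups compared or without both wild-type replicate 2 libraries, 0 with equal FPKM sums or with a log2 difference of at least 1, 6 with voom on implied fragments (which called 1611 of all genes, against 924), 3 with an adjusted p under 0.1 (Gapdh added) or median-of-ratios scaling (Pfkp added), and 0 to 2 with 1 library left out. Averaged over genotypes it was 6, with 0 under equal FPKM sums or a log2 difference of at least 1, 4 with quantile normalization (without Aldoa and Gapdh), 7 (Ldha added) with a robust spread, voom or an adjusted p under 0.1, and 4 to 6 with 1 library left out. Between genotypes in term-diff cells it was 0, and 1 (Slc2a3) with a robust spread, with voom or with an adjusted p under 0.1, which called 78, 321 and 47 of all genes, against 19. Between genotypes on average it was 1, and 0 with no filter, with equal FPKM sums with or without small RNA, with no trend, with a log2 difference of at least 1, with any 1 library left out (0 to 0) and without both wild-type replicate 2 libraries. The cause of these changes was not tested. Where no count of all genes stands beside it, a changed count may hold for all genes and not for the 10 alone. The settings listed above are not all that lost calls. The wild-type call of Hk2 was also lost with a pseudocount of 0.1, with equal sums without small RNA and with library weights. Median-of-ratios scaling lost the wild-type call of Slc2a1, and no filter on low values lost the averaged call of Aldoa. With at least 5 FPKM in 2 libraries Hk2 was not tested in any comparison. Omitting both wild-type replicate 2 libraries was chosen after seeing the data. Under equal FPKM sums the genes called among all those kept fell from 1278 to 153 in the wild type, from 924 to 71 in Cd69-deficient cells and from 2001 to 252 on average.

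The labels number the replicates 1 and 2 in every group, without saying that a number marks a shared mouse or day. Deviations of same-numbered libraries from their group means correlated at between -0.297 and 0.152 over the 6 pairs of groups. Only libraries of 1 genotype can share a mouse, and these pairs gave 0.152 in the wild type and -0.157 in Cd69-deficient cells. Replicate 2 of both wild-type groups also had the lower share of small RNA. The main fit did not pair the libraries by number, but these values cannot exclude a shared mouse or day. With the replicate block the counts called were 1 in the wild type, 2 in Cd69-deficient cells and 6 on average between subsets, and 0 in each comparison of genotypes and in the interaction. The share of all genes called with the block is not given here, so these counts have no background.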

Other observations

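Genes of the hypoxia response outside the 10 glycolysis genes moved in both directions between the subsets. Of 26 such genes 17 were kept, and 1 rose and 2 fell in each genotype, with medians of -0.04 in the wild type and 0.03 in Cd69-deficient cells against 0.06 and -0.03 for all genes. The shares of all genes called were 13.1% in the wild type and 9.45% in Cd69-deficient cells. Mxi1, which encodes an antagonist of MYC, rose by 1.51 ± 0.16 in the wild type (adjusted p = 0.000775 by limma) and 0.86 ± 0.16 in Cd69-deficient cells (adjusted p = 0.0119). Its mean level went from 6.53 to 20.6 FPKM in the wild type and from 6.65 to 12.97 FPKM in Cd69-deficient cells. Fam162a, a HIF-1 target of the mitochondria, had -1.42 ± 0.18 and -1.05 ± 0.18 (adjusted p = 0.00219 and 0.00999). On average Ero1l, an oxidase of the endoplasmic reticulum, also rose, by 0.35 ± 0.10 (adjusted p = 0.0404).

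Ddit4, which encodes the mTORC1 inhibitor REDD1, had -0.60 ± 0.12 and -0.52 ± 0.12 between subsets (adjusted p = 0.0123 and 0.0267). It was also lower in Cd69-deficient cells on average, by -0.53 ± 0.08 (adjusted p = 0.0338), and that call was lost in each of the 8 single omissions. Its group means were 38.0 FPKM in wild-type stem-like, 24.7 in wild-type term-diff, 25.2 in Cd69-deficient stem-like and 17.2 in Cd69-deficient term-diff cells.

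Markers of neutrophils and B cells, 4 each, had no gene kept and summed to at most 0.940 and 0.503 FPKM per library. Markers of erythroid cells, 1 of 4 kept, summed to at most 2.75 FPKM.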
